A study of Mus musculus with 8 samples.

Results

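The 5 genes described here, Gja1, Gjb2, Gjb5, Gjb6 and Gjc1, encode connexins, the proteins of gap junctions. They were taken by symbol from the platform annotation of the arrays, and each was measured by 1 probe set, so they are 5 of the 19938 genes that could be named. Fibroblasts of mouse embryos, cultured as primary cells, gave the RNA. They were of 2 lines, line A (MEF10) and line B (MEF16), each of them a single line, and the RNA was measured on Affymetrix microarrays. The groups were line A with tamoxifen (expressing PKM1), line A without tamoxifen (expressing PKM2), line B with tamoxifen (expressing PKM1) and line B without tamoxifen (expressing PKM2), with 2 arrays each, 8 in all. PKM1 and PKM2 are the alternatively spliced isoforms of pyruvate kinase. The genotype, the allele that responds to tamoxifen, the dose, the time and the vehicle are not given in the sources used here. The drug and the exchange of isoforms come together in every treated array and cannot be told apart.

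Connexins are membrane proteins that assemble into hemichannels, and the hemichannels of neighbouring cells dock to form gap junctions, through which ions, metabolites and second messengers pass directly from cell to cell. Gja1, which encodes connexin 43, is the main connexin of fibroblasts and of many other cells. Gjc1 encodes connexin 45, a channel of low conductance best known from the heart and vascular smooth muscle. Gjb2 and Gjb6 encode connexin 26 and connexin 30, partners in the supporting cells of the inner ear and in skin, and Gjb5 encodes connexin 31.1, known from stratified epithelium and trophoblast.

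Values are log2 expression values after RMA normalization, and differences are log2 fold changes with standard errors from limma. Probe sets bind with different strength, so the level of one gene cannot be set against that of another. The 5 genes were chosen by symbol with earlier log2 fold changes of these data known, among them the low value of Gjb2 with tamoxifen, and which values led to the other 4 is not recorded. Their differences with tamoxifen and between the lines are therefore given as a description. Counts of the 5 that passed limma's threshold in these contrasts stand beside those of all genes and support nothing. The tests concern genes outside the 5 and the difference between the lines' responses.

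The windows around the annotated starts of Gjb2, Gjb6 and Gja1, 250 bases before and 50 after, are printed because Gjb2 is the member that changed most, Gjb6 is its neighbour on the chromosome, and Gja1 is the usual fibroblast connexin. They are RefSeq sequences of GRCm38.p6, 5′ to 3′ along the gene, at chr14:57104653-57104952 (minus strand), chr14:57133562-57133861 (minus strand) and chr10:56377050-56377349 (plus strand). Capitals mark matches, on either strand, to a motif. The letters GGGCGG were searched for the GC box, TGANTCA for the AP-1 element and CACCTG for the Snail-type E-box. The letters TATAAA were searched for the box of that name, and CCAAT stands for its own letters.
Gjb2: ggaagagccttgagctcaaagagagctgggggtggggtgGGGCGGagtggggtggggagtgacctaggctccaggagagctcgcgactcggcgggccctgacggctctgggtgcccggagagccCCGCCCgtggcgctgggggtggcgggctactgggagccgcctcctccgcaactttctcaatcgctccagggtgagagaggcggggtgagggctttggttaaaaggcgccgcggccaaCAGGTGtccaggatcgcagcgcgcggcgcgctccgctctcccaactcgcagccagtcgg
Gjb6: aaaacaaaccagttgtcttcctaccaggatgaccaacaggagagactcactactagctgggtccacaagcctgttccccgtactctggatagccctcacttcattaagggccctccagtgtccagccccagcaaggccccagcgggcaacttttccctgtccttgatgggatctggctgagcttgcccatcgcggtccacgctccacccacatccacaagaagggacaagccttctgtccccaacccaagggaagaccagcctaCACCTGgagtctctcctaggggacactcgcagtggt
Gja1: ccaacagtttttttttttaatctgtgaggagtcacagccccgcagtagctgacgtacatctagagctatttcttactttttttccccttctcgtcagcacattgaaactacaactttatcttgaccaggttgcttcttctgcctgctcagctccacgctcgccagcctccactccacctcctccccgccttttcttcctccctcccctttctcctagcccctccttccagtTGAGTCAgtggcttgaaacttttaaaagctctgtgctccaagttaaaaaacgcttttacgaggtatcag

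The Gjb2 window held 2 GC boxes, beginning at bases 40 and 125 of the window, and 1 E-box at base 242, just before the start. The Gjb6 window held 1 E-box at base 265 and the Gja1 window 1 AP-1 element at base 232. No match to another of the 5 motifs was found in these windows, and no marked matches overlap. Of all 32851 RefSeq promoter windows of 300 bases, 35.7% held a GC box, 20.2% the E-box, 7.81% the AP-1 element, 13.6% the TATA box and 37.4% the CCAAT box. The Gjb2 window was 70% G and C, against 57.3% for Gjb6, 47.7% for Gja1 and a median of 52.7% over all windows. These matches are descriptions of sequence, and binding was not measured. The Gjb5 window held 1 TATA box match and 1 CCAAT box match, and Gjc1 is named without a sequence.

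Gjb2 was lower with tamoxifen in both lines. In line A its values were 9.33 and 9.14 with tamoxifen and 10.05 and 10.21 without. In line B they were 9.16 and 9.43 with tamoxifen and 10.14 and 9.87 without. All 4 treated arrays lay below all 4 untreated ones, the highest treated array at 9.43 and the lowest untreated one at 9.87. The mean was 9.26 ± 0.14 with tamoxifen and 10.07 ± 0.15 without (SD, n = 4 arrays each).

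Over both lines the log2 fold change of Gjb2 was -0.80 (SE 0.10, 95% interval -1.02 to -0.59), so that treated cells held 0.573 times the untreated level. This was the lowest of all 19938 fold changes in that comparison. In line A alone it was -0.90 (SE 0.14), a ratio of 0.537, and in line B alone -0.71 (SE 0.14), a ratio of 0.610. In RNA from whole cultures, fewer cells that express a gene and less RNA per cell cannot be told apart. Ordered by level, the treated groups came first, line A at 9.23 and line B at 9.29, whose arrays overlapped. The untreated groups followed, line B and then line A, which overlapped as well.

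Gja1 was slightly lower with tamoxifen in line A and lower by more in line B, where its arrays were far apart. In line A its values were 11.71 and 11.70 with tamoxifen and 11.83 and 11.76 without. In line B they were 11.31 and 10.73 with tamoxifen and 11.43 and 11.73 without. In each line the treated arrays lay below the untreated ones, but over both lines they overlapped, because untreated line B array 1 lay below both treated line A arrays.

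The log2 fold change of Gja1 was -0.09 (SE 0.18) in line A, -0.56 (SE 0.18) in line B and -0.33 (SE 0.14, 95% interval -0.63 to -0.02) over both lines. The value over both lines rested largely on 1 array: without treated line B array 2 it was -0.16, and in line B alone -0.27. By level, line B with tamoxifen was lowest at 11.02 and did not overlap with line B without at 11.58. That group overlapped with line A with tamoxifen at 11.71, which lay below line A without at 11.80.

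Gjc1 was lower with tamoxifen in both lines, by less than Gjb2. In line A its values were 8.76 and 8.78 with tamoxifen and 8.90 and 9.04 without. In line B they were 8.63 and 8.85 with tamoxifen and 9.20 and 8.91 without. All 4 treated arrays lay below all 4 untreated ones, although treated line B array 2 and untreated line A array 1 differed by little. The log2 fold change was -0.26 (SE 0.09, 95% interval -0.45 to -0.07) over both lines, -0.20 (SE 0.13) in line A and -0.32 (SE 0.13) in line B. The treated group means were 8.74 in line B and 8.77 in line A, and these groups overlapped. The untreated means were 8.97 in line A and 9.06 in line B, which overlapped too.

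Gjb5, by contrast, had nearly the same mean in both conditions, with log2 fold changes of 0.02 (SE 0.18) in line A, 0.00 (SE 0.18) in line B and 0.01 (SE 0.12, 95% interval -0.25 to 0.27) over both lines. In line A its values were 7.56 and 7.51 with tamoxifen and 7.56 and 7.48 without. In line B they were 7.53 and 7.12 with tamoxifen and 7.08 and 7.56 without. The line B arrays thus formed a high and a low pair, each with 1 treated and 1 untreated array, and the gap within either group exceeded every difference between group means. All groups that were neighbours in level overlapped.

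Gjb6, the neighbour of Gjb2, had the narrowest range of the 5, 5.48 to 5.77 over the 8 arrays. In line A its values were 5.58 and 5.53 with tamoxifen and 5.48 and 5.69 without. In line B they were 5.48 and 5.55 with tamoxifen and 5.63 and 5.77 without, so the treated arrays lay below the untreated ones in line B only, while the line A arrays overlapped. The log2 fold change was -0.11 (SE 0.08, 95% interval -0.27 to 0.06) over both lines, -0.03 (SE 0.11) in line A and -0.19 (SE 0.11) in line B. No detection calls were used, so whether Gjb5 and Gjb6 were above background was not tested.

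**Figure D1:**
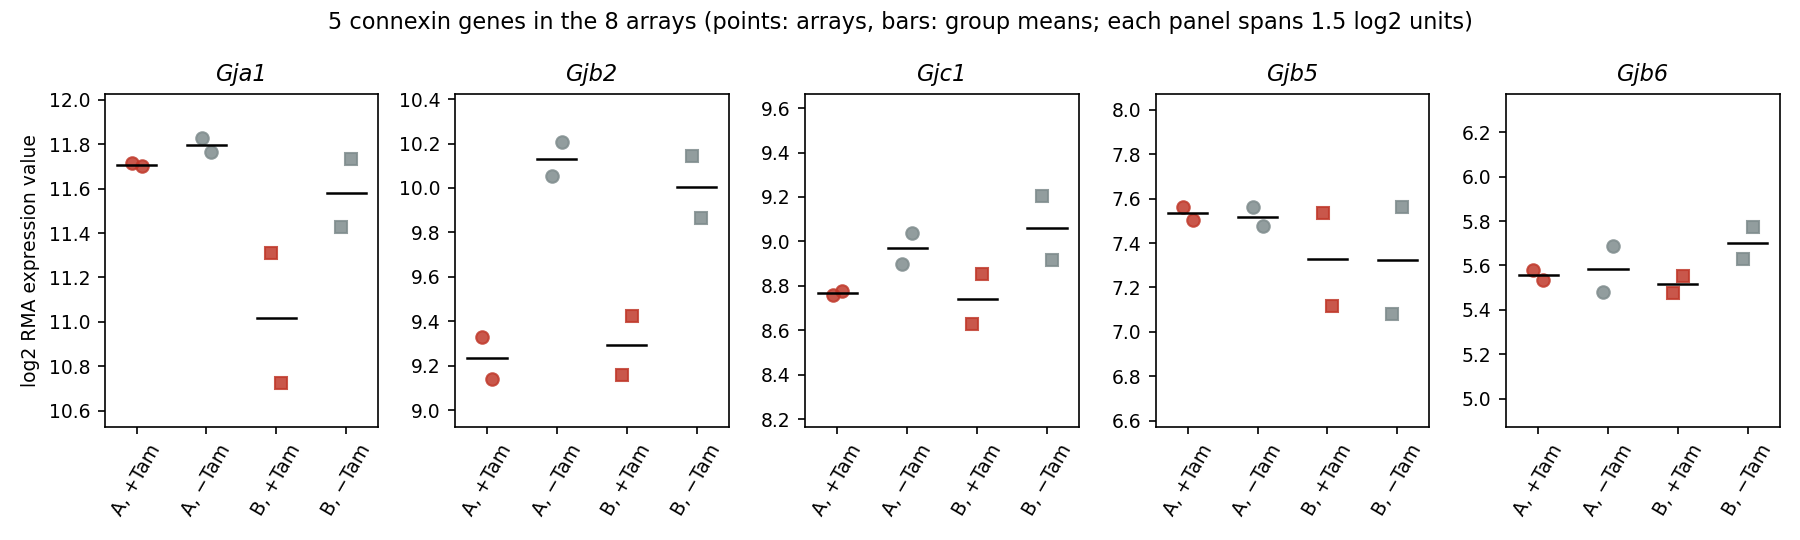
The log2 RMA values of the 5 genes are plotted on the vertical axes for the 8 arrays (points; circles for line A, squares for line B) with group means (bars), with tamoxifen in red left of without in grey. The Gjb2 arrays with tamoxifen lie between 9.14 and 9.43, below all arrays without tamoxifen, and the arrays within a line B group are furthest apart for Gja1 and Gjb5.

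In limma's fit to all genes, 1 of the 5 connexins, Gjb2, passed an adjusted p of 0.05 in the fit over both lines, and it was lower; 0.512% of all genes passed as lower and 1.32% in either direction. In line A 1 of 5 passed, again Gjb2, against 0.1% of all genes as lower and 0.502% in either direction, and in line B 0 of 5 did, against 0.0201%, of which 0% as lower. Before adjustment, 3 of the 5 and 1964 of all 19938 genes were under 0.05 over both lines, 1 of the 5 and 1614 of all genes in line A, and 3 of the 5 and 962 of all genes in line B. In 2 of the 5, Gjb2 and Gjc1, every treated array lay below every untreated one, as in 2.74% of all genes. The genes were chosen with this comparison in view, so nothing is read from these counts. The median log2 fold change of the 5 was -0.26, beside -0.01 for all genes.

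**Figure D2:**
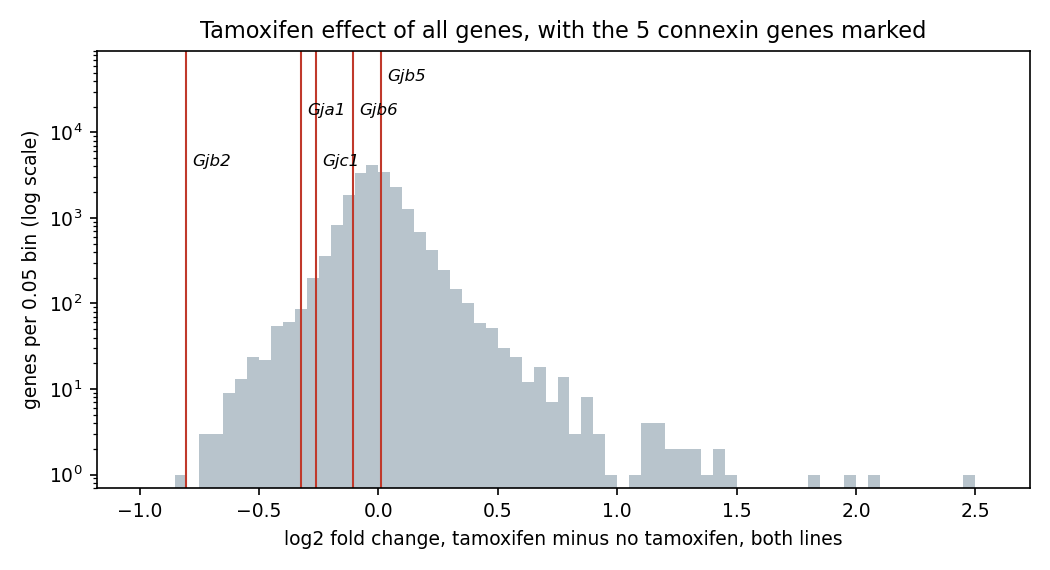
The histogram shows the log2 fold change with tamoxifen over both lines (horizontal axis) for 19938 genes (vertical axis, genes per bin on a log scale), with red lines at the 5 connexins. Gjb2 stands at the lower end at -0.80, Gja1 and Gjc1 lie at -0.33 and -0.26, and Gjb6 and Gjb5 lie within the bulk of the genes.

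The responses of the lines were compared as the effect in line B minus the effect in line A. In limma 0 of the 5 genes passed, as did 0% of all genes. Before adjustment, 0 of the 5 and 565 of all 19938 genes were under 0.05. The difference was 0.18 for Gjb2 (SE 0.19, 95% interval -0.26 to 0.63) and -0.47 for Gja1 (SE 0.25, 95% interval -1.05 to 0.11). It was -0.12 for Gjc1 (SE 0.18), -0.16 for Gjb6 (SE 0.15) and -0.01 for Gjb5 (SE 0.25). The adjusted p in limma was 1.00 for each of the 5, which does not show that the lines responded alike: the interval for Gja1 reaches a difference larger than its effect in line B.

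Between the lines, with tamoxifen as a term in the fit, Gja1 was the most different of the 5. It averaged 11.30 ± 0.42 in line B and 11.75 ± 0.06 in line A (SD, n = 4 arrays each), a log2 difference of -0.45 (SE 0.14, 95% interval -0.76 to -0.14). Untreated line B array 2, at 11.73, lay among the line A arrays and the other 3 line B arrays below them. Without treated line B array 2 the difference was -0.29. Gjb5 was at 7.32 ± 0.26 in line B and 7.53 ± 0.04 in line A, a difference of -0.20 (SE 0.12), again with overlapping arrays. For Gjb2, Gjc1 and Gjb6 the differences were -0.03 (SE 0.10), 0.03 (SE 0.09) and 0.04 (SE 0.08).

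Of the 5 connexins, 0 passed between the lines, against 1.47% of all genes, and 1 (Gja1) was under 0.05 before adjustment, as were 1625 of all genes. Untreated line B array 2 and treated line B array 1 were the pair high for Gjb5. Leaving them out together gave -0.67 for Gja1 and -0.43 for Gjb5. Leaving out the other line B pair gave -0.23 and 0.02. Both pairs were chosen after seeing the data, and each of these fits kept 1 array per line B group. The pair high for Gjb5 also held the higher array of each line B group for Gja1. The directions of these shifts therefore follow from the choice, and nothing is read from them. Replicates of a group were further apart in line B, with median absolute differences over all genes of 0.148 with tamoxifen and 0.154 without, than in line A with 0.0778 and 0.106.

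Of the 11 other connexins analysed here, 0 passed with tamoxifen in limma, all 11 being above 0.05 even before adjustment. The lowest log2 fold change of the 11 was that of Gja5, a connexin of arterial endothelium, at -0.14 (SE 0.08, adjusted p = 0.63), followed by Gjb1, the connexin of liver and Schwann cells, at -0.13 (SE 0.07, adjusted p = 0.63). The highest was that of Gja4, another endothelial connexin, at 0.05 (SE 0.08, adjusted p = 0.90). Gja3, a lens connexin on the other side of Gjb2 on chromosome 14, was at -0.05 (SE 0.08, adjusted p = 0.91). Gjb2 thus lies between Gja3 and Gjb6 in the order of protein-coding genes, and neither neighbour passed; their difference from Gjb2 was not tested.

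The remaining connexins had log2 fold changes near 0 over both lines. Gja6 of the testis was at -0.10 (SE 0.07), Gjd3 of the cardiac conduction system at -0.05 (SE 0.07), the neuronal Gjd2 at -0.04 (SE 0.09), and Gjc3 of myelinating glia at -0.02 (SE 0.08). Gja10 of the retina was at 0.00 (SE 0.11), Gje1 of the lens at 0.01 (SE 0.10) and Gjd4 at 0.02 (SE 0.10). The median of the 11 was -0.04, beside -0.01 for all genes. The pannexins, which form single-membrane channels, did not pass either: Panx1 was at 0.03 (SE 0.07), Panx2 at -0.09 (SE 0.08) and Panx3 at -0.02 (SE 0.09) (0 of 3 under 0.05 before adjustment).

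Between the lines 0 of the 11 other connexins and 0 of the 3 pannexins passed. Gja5 had the smallest p, at -0.21 in line B relative to line A (SE 0.08, adjusted p = 0.41), and was the 1 of the 14 under 0.05 before adjustment. The lines' responses differed significantly for 0 of these 14, with 1 (Panx3, 0.37, SE 0.15) under 0.05 before adjustment.

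**Figure D3:**
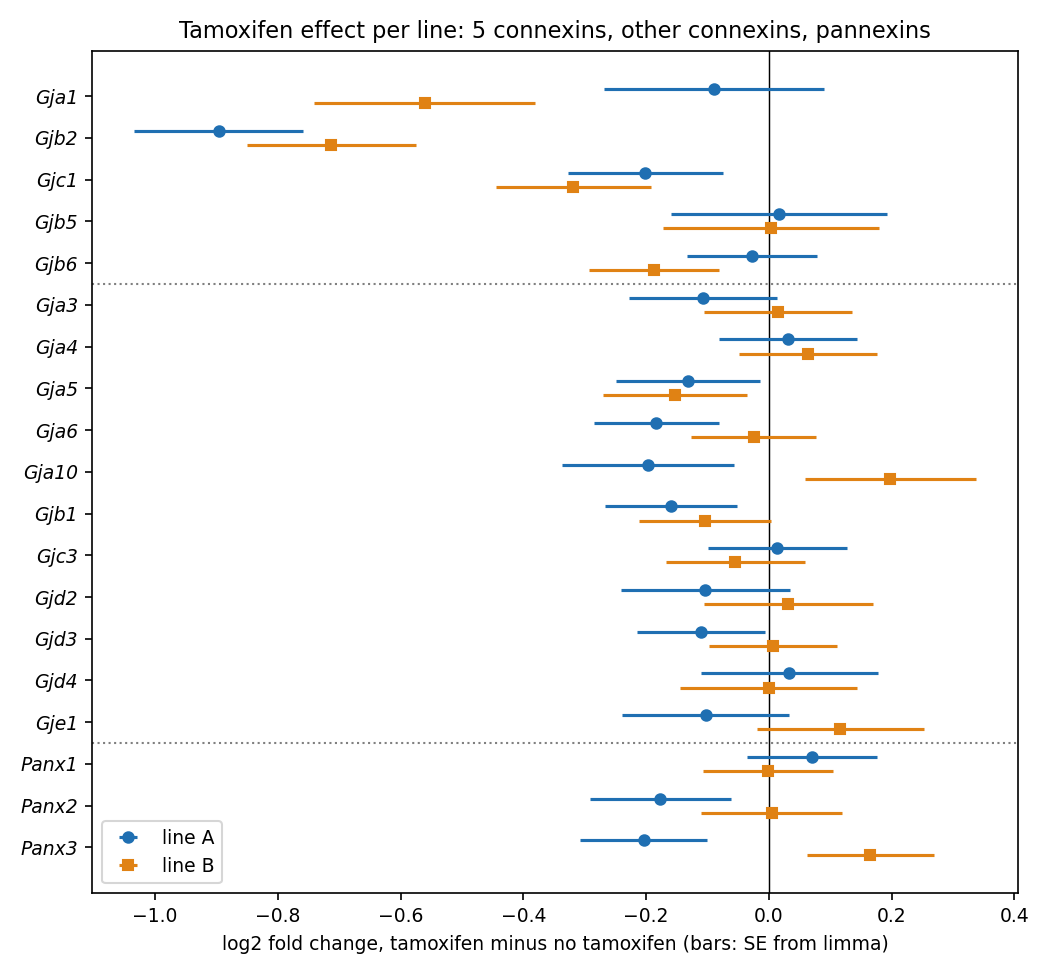
Log2 fold changes with tamoxifen (horizontal axis) are shown for line A (blue circles) and line B (orange squares) with standard errors from limma (bars), for the 5 connexins, the 11 others and the 3 pannexins from top to bottom. Gjb2 lies at -0.90 in line A and -0.71 in line B, and the 11 other connexins and the 3 pannexins run from -0.20 (Panx3 in line A) to 0.20 (Gja10 in line B).

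Genes whose products work with connexins were read next. Of 15 measured binding partners, ubiquitin ligases and kinases of connexins, 0 passed with tamoxifen (median -0.02), against 1.32% of all genes. Before adjustment in limma 3 of the 15 were under 0.05, as were 1964 of all 19938 genes. These shares of all genes, and the 1.47% that passed between the lines, also stand beside the counts of the lists below. The smallest p was that of Prkca, a protein kinase C that phosphorylates connexin 43, with values of 9.46 and 9.46 with tamoxifen and 9.84 and 9.70 without in line A, and 9.19 and 9.15 with tamoxifen and 9.40 and 9.44 without in line B. All treated arrays of each line lay below its untreated ones, and the log2 fold change was -0.28 (SE 0.06, adjusted p = 0.067). Between the lines Prkca was the 1 of 15 that passed, lower in line B by a log2 difference of -0.32 (SE 0.06, adjusted p = 0.035). That call was lost without any 1 of the 8 arrays (adjusted p 0.061 to 0.14). Tjp1, which encodes the scaffold ZO-1 that binds connexin 43, was at -0.12 (SE 0.06, adjusted p = 0.60) and Ccn3, another partner, at 0.32 (SE 0.08, adjusted p = 0.13).

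Of 12 adherens junction and desmosome genes, 1 rose with tamoxifen and 0 fell (median -0.03). The 1 that rose was Dsp, which encodes desmoplakin, the linker from desmosomes to intermediate filaments. Dsp had 7.93 and 7.82 with tamoxifen and 7.54 and 7.35 without in line A, and 7.61 and 7.75 with tamoxifen and 7.35 and 7.22 without in line B. All treated arrays were above all untreated ones, by a log2 fold change of 0.41 (SE 0.07, adjusted p = 0.027). The call was lost when any of 6 arrays, all but untreated line B array 1 and treated line B array 1, was left out (adjusted p up to 0.14). Between the lines 1 of the 12 passed, Pkp2, a plakophilin of desmosomes, higher in line B by 0.43 (SE 0.08, adjusted p = 0.033), and of the 8 omissions of 1 array, the call was lost in all but that of treated line B array 1 (adjusted p up to 0.15).

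Of 16 measured transcription factors known to act on connexin genes, 0 passed with tamoxifen (median -0.05), 2 being under 0.05 before adjustment in limma. The smallest p was that of Tfap2a, which encodes AP-2 alpha, with 7.51 and 7.36 with tamoxifen and 7.71 and 7.73 without in line A, and 7.01 and 7.02 with tamoxifen and 7.39 and 7.29 without in line B. Its arrays did not overlap within either line, and the log2 fold change was -0.31 (SE 0.06, adjusted p = 0.051). It passed under 6 of 19 alternative settings. Between the lines Tfap2a was the 1 of 16 that passed, lower in line B by -0.40 (SE 0.06, adjusted p = 0.012). That call was lost without untreated line A array 2 (adjusted p = 0.061), without treated line A array 1 (0.074) and with no term for tamoxifen (0.22).

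Among all other genes with a proper name, those most like Gjb2 by Pearson's r of the log2 values over the 8 arrays were Ect2 (r = 0.989), Prc1 (0.986), Wdhd1 (0.984) and Exo1 (0.981). Ect2 and Prc1 act in cytokinesis, Wdhd1 in DNA replication and Exo1 in DNA repair. All 4 fell with tamoxifen, by log2 fold changes of -0.61 (SE 0.07, adjusted p = 0.0043), -0.44 (SE 0.08, adjusted p = 0.037), -0.72 (SE 0.07, adjusted p = 0.0012) and -0.45 (SE 0.07, adjusted p = 0.014) in that order. The Ect2 and Wdhd1 calls held without any 1 array, while Exo1 lost its call without any 1 of the 4 line A arrays (adjusted p up to 0.090) and Prc1 without any of these, untreated line B array 1 or treated line B array 1 (up to 0.19). They were chosen for likeness to a gene that passed as lower, so their direction follows from the choice. The 8 arrays share the group structure, and r is a description of likeness only.

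**Figure D4:**
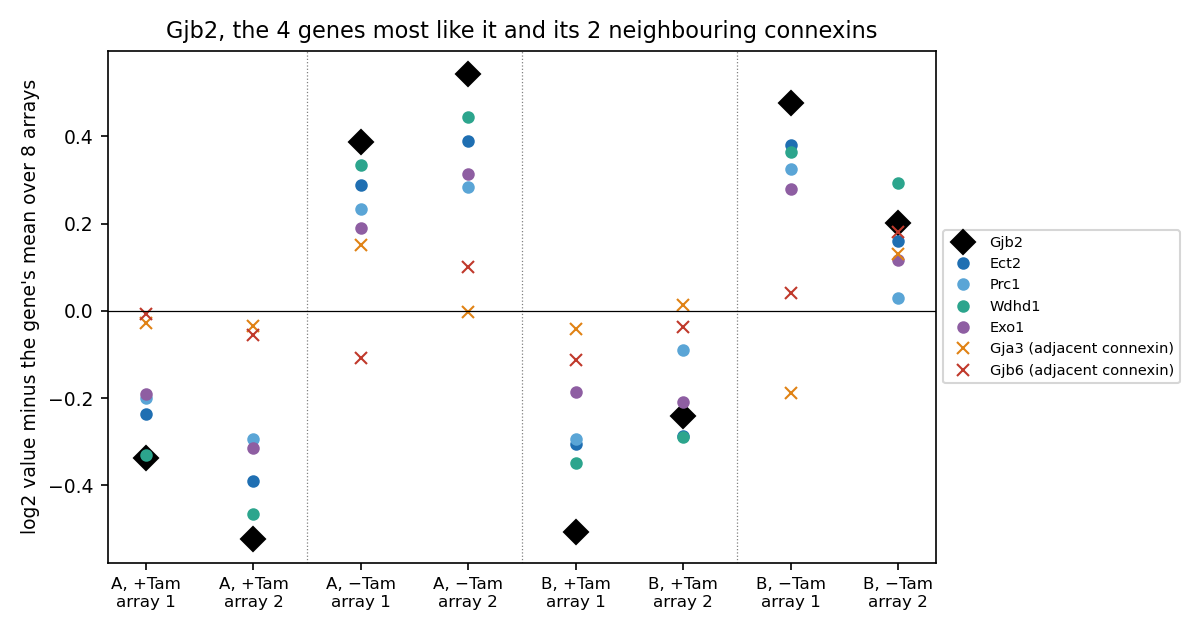
Each point is the log2 value of a gene on 1 array (horizontal axis, by group) minus that gene's mean over the 8 arrays (vertical axis), for Gjb2 (diamonds), the 4 genes most like it (circles) and its neighbours Gja3 and Gjb6 (crosses). Gjb2 and the 4 genes are below 0 on all 4 arrays with tamoxifen and above 0 on all 4 without. Gjb6 is also below 0 on all 4 arrays with tamoxifen, but untreated line A array 1 is below 0 too. Gja3 lies on both sides of 0 with and without tamoxifen.

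For Gjc1 the most alike genes were Clcc1 (r = 0.985), Nup37 (0.967), Pus10 (0.962) and Spag5 (0.959), of which Nup37 encodes a nucleoporin and Spag5 a spindle protein. Spag5 passed with tamoxifen (-0.39, SE 0.08, adjusted p = 0.045), a call lost without any 1 of the same 6 arrays as that of Prc1 (adjusted p up to 0.20), and Clcc1, Nup37 and Pus10 did not (-0.17, -0.34 and -0.27). For Gja1 they were Bicral (0.988), Prkci (0.983), which encodes an atypical protein kinase C, Naaa (0.977) and Pi4kb (0.971). For Gjb5 they were Sik2 (0.971), Mapk13 (0.964), Bace1 (0.963) and Ubald1 (0.961), and for Gjb6 Nudt1 (0.964), Ribc2 (0.943), Prr33 (0.937) and Ntn5 (0.931). None of the 12 genes named for these last 3 connexins passed with tamoxifen or between the lines. Like Gja1, each gene named for it was lowest on treated line B array 2. Each gene named for Gjb5 had the same high and low pair of line B arrays as Gjb5. These likenesses thus rest in part on differences between replicate arrays of line B.

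Other label fields speak of mammary tumours, so markers of epithelium and of other cells were read beside the connexins, of which Gjb2, Gjb5 and Gjb6 are best known from epithelia. Of 14 epithelial markers 0 passed with tamoxifen or between the lines. The list's mean log2 value was 6.70 to 6.73 (line A with tamoxifen), 6.69 to 6.79 (line A without), 6.70 to 6.78 (line B with) and 6.70 to 6.78 (line B without). Epcam, an epithelial adhesion protein, did not pass (-0.08, SE 0.06, adjusted p = 0.76), nor did Krt5 (0.00, SE 0.08, adjusted p = 0.99), a keratin of basal epithelium. RMA values have no true 0, so no marker can be listed as absent. Trophoblast markers had 0 of 7 passing in both comparisons, as had glial (0 of 3) and skeletal muscle markers (0 of 5). Before adjustment in limma, 2 of the 7 trophoblast markers were under 0.05 with tamoxifen and 1 between the lines. Of the epithelial, glial and skeletal muscle markers 0 were under 0.05 in either comparison.

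The fibroblast list had means of 10.66 to 10.68 (line A with tamoxifen), 10.43 to 10.57 (line A without), 10.34 to 10.68 (line B with) and 10.39 to 10.54 (line B without). With tamoxifen 2 of 10 rose, the matrix proteoglycan genes Lum (1.33, SE 0.17, adjusted p = 0.0047) and Dcn (0.88, SE 0.15, adjusted p = 0.021). Of the 10, 7 had a negative log2 fold change, as had 55.4% of all genes, and the median was -0.02. In line A the list means with tamoxifen lay above those without, while in line B they overlapped. Of 7 smooth muscle and mural markers (median 0.08) 2 rose, Myh11 (0.47, SE 0.07, adjusted p = 0.010) and Rgs5 (0.63, SE 0.11, adjusted p = 0.021). The means of the smooth muscle list were 9.64 to 9.70 (line A with), 9.56 to 9.59 (line A without), 9.75 to 9.88 (line B with) and 9.57 to 9.64 (line B without). Of 8 macrophage and other blood markers 0 passed with tamoxifen (1 under 0.05 before adjustment), and of 6 endothelial markers 0 did (0 before adjustment). Among these, the Dcn call was lost without any 1 of the 4 line A arrays (adjusted p up to 0.11), that of Rgs5 without untreated line A array 1 or either treated line A array (up to 0.10), and that of Myh11 without untreated line A array 2 or treated line A array 1 (up to 0.058).

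Between the lines 3 of the 8 blood markers were higher in line B, Adgre1 by 0.59 (SE 0.07, adjusted p = 0.0021), Tyrobp by 0.73 (SE 0.09, adjusted p = 0.0028) and Cd52 by 0.50 (SE 0.08, adjusted p = 0.013). The list means were 6.76 to 6.80 (line B with tamoxifen) and 6.66 to 6.71 (line B without), against 6.32 to 6.34 (line A with) and 6.22 to 6.33 (line A without). Emcn, 1 of 6 endothelial markers, was higher in line B by 1.05 (SE 0.11, adjusted p = 0.0011). Of the fibroblast markers Thy1 was higher in line B (0.57, SE 0.07, adjusted p = 0.0017) and Lum lower (-1.58, SE 0.17, adjusted p = 0.0012). Of the mural markers Myh11 was higher (0.63, SE 0.07, adjusted p = 0.0012) and Rgs5 lower (-0.51, SE 0.11, adjusted p just under 0.05). The Rgs5 call was lost in all omissions of 1 array but that of untreated line B array 1, and the Cd52 call without either treated line A array (adjusted p = 0.064 and 0.069). Of the blood markers 8 of 8 had a positive difference (median 0.46), while 1 endothelial marker passed as higher (list median -0.02), and 1 passed as higher and 1 as lower in the fibroblast list (median -0.05) and in the mural list (median 0.13). Their part in the Gja1 difference between the lines was not tested.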

How the data were processed

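RNA of 8 primary mouse embryonic fibroblast samples was measured on Affymetrix arrays. Per the labels' design text, the authors ran RMA on the scanner files with Affymetrix Expression Console (no version is named). RMA subtracts background, makes the arrays' distributions equal and condenses the probes of a set into 1 value. The deposited table holds log2 values between 2.61 and 14.12 for 35556 probe sets, and it was used as it is.

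Groups came from the sample titles. The labels number no replicates, so arrays are numbered in sample order, and nothing says that they were separate cultures: p-values measure the spread between these arrays, possibly a technical one. With 2 arrays a group, their number sets the precision. GEO's platform annotation gave 1 symbol for 21789 probe sets, several for 1621 and none for 12146. Of the 21789, 21698 matched a RefSeq gene ID, which changed 0 symbols. For 999 genes with several probe sets the brightest was used, leaving 19938 genes.

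Tests used limma 3.58.1 in R 4.3.3 (functions lmFit and eBayes). Adjusted p-values are Benjamini-Hochberg values over the 19938 genes, and those under 0.05 passed. Tamoxifen over both lines and the lines were fitted together (line plus tamoxifen, 5 residual degrees of freedom). Effects per line and their difference came from the 4 group means (4 residual degrees of freedom). The members, the 5 pathway lists and the 8 marker lists were chosen with earlier results of these data known. Named were the 5 members, all other measured connexins and pannexins, and up to 4 passing genes of each list. Where no gene passed, the gene with the smallest p was named in the pathway lists but not in the marker lists. Also named were the 4 genes most like each member (unnamed transcripts, small RNAs and olfactory or vomeronasal receptors left out). Tjp1, Ccn3, Epcam and Krt5 were added once their values were known. The fits were tested on simulated data before use. Of planted log2 effects of -0.5, 64.8% were found over both lines, 22.8% in line A and 22.4% in line B. No difference between the lines' responses was planted, so the power to find one was not tested. Noise was drawn independently for each gene, so patterns that genes share across arrays were not covered.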

Additional observations from a re-analysis of the deposited data

How the results depend on the processing

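The number of the 5 connexins that passed stayed at 1 (Gjb2) over both lines under all 19 alternatives, at 0 in line B under 18 and at 0 for the difference between the lines under 17. In line A it lay between 0 and 1 when single arrays were left out, being 0 without any 1 of the 4 line A arrays, and 1 under the other alternatives. Between the lines it was 0 except without untreated line B array 2 and treated line B array 1 together, an alternative chosen after seeing the data. That fit kept 1 array per line B group and its shifts for Gja1 and Gjb5 follow from the choice, so no count is read from it. Of 435 fold changes of the members under alternatives, 411 counted as unchanged, 4 lost their call (Gjb2 in line A) and 0 that passed changed sign. The other 20 moved by more than 1 residual SD. Unchanged meant a call kept or a move of less than 1 residual SD. For the difference between the lines' responses it meant only that the gene still did not pass. Without single arrays that difference ranged from -0.76 to -0.18 for Gja1 and from -0.25 to 0.23 for Gjb5. Gjb2 over both lines ranged from -0.88 to -0.75. Without single arrays, Gja1 ranged from -0.40 to -0.16 over both lines and from -0.85 to -0.27 in line B, and Gjb5 from -0.24 to 0.24 in line B.

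The count of all genes called was 263 over both lines (58 to 829 under alternatives), 100 in line A (0 to 543), 4 in line B (0 to 22), 293 between the lines (116 to 1857) and 0 for the difference (0 throughout). With no term for the line, Dsp, Dcn, Lum, Myh11 and Rgs5 did not pass with tamoxifen. Of the 19 alternatives for tamoxifen, array omissions included, Prc1 passed under 12 and Spag5 under 9. With no term for tamoxifen, Lum, Myh11 and Rgs5 did not pass between the lines, and Rgs5 missed the threshold under 5 more settings. Prkca passed between the lines under 6 of 18 alternatives, array omissions included. With the 30% dimmest genes left out Gjb6 was not tested. No paired analysis was possible because the labels give no replicate numbers that groups share.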
